A study of Mus musculus with 12 samples.

Results

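The amino acid transporter genes described here are Slc7a5, Slc3a2, Slc7a6, Slc43a1, Slc7a1, Slc1a5, Slc1a4, Slc38a1 and Slc38a2. They were chosen by symbol, 9 of the 40840 gene symbols counted in each library. All 9 passed the filter on low counts and were among the 13570 genes tested. They are described by their read counts across recipient genotype and day of priming.

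The libraries were made from naive OTII cells, whose transgenic T cell receptor recognises ovalbumin (OVA), after transfer into C57BL/6J (WT) or B6.129S2-IL-6tm1Kopf/J (Il6-/-) recipient mice, named hosts below. All hosts of both genotypes received house dust mite extract (HDM) with OVA intranasally. The extract contained endotoxin by the study's design text, which the treatment label does not mention, and no unsensitized or endotoxin-free group was among the libraries analysed here. The donor cells were sorted by CD4, CD44, CD45.1 and lack of B220 from the lung-draining mediastinal lymph nodes (mLN) on Day 3 or Day 5, with 3 replicates for each of the 4 groups, WT Day 3, Il6-/- Day 3, WT Day 5 and Il6-/- Day 5. The labels give the tissue as blood, whereas the design text gives mLN. Only the recipients differed in Il6 and the donor cells were the same in both genotypes, so the Il6 reads of the sorted cells, 0 to 5 per library, do not check the labels. Days are numbered as in the labels. Whether a replicate was 1 mouse or a pool is not given in the sources used here, so the p-values measure the spread between these libraries.

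T cells that meet antigen grow and divide, and they take up amino acids through carriers that are scarce on resting cells. System L carriers move large neutral amino acids such as leucine across the membrane, and some of them exchange these for intracellular glutamine. Leucine in the cytosol activates the kinase complex mTORC1. Slc7a5 encodes LAT1, the main system L light chain of activated T cells, and Slc3a2 encodes its heavy chain, CD98, which carries several light chains to the plasma membrane. Slc7a6 encodes y+LAT2, another light chain of CD98, which exchanges cationic for neutral amino acids. Slc43a1 encodes LAT3, a system L carrier that needs no heavy chain. Slc7a1 encodes CAT1, which takes up arginine and lysine. Slc1a5 encodes ASCT2 and Slc1a4 encodes ASCT1, sodium-dependent exchangers of glutamine and of alanine, serine and cysteine. Slc38a1 and Slc38a2 encode SNAT1 and SNAT2, sodium-coupled carriers of glutamine and other small neutral amino acids.

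Gene counts summed to between 16125947 and 26111657 reads in a library. The share of all reads assigned to genes was 60.2% to 62.2% on Day 3 and 52.5% to 56.7% on Day 5, so it moved with day, and its part in the differences between days was not tested. All 10 T helper cell markers were detected in every group, with Cd4 at 825 to 1347 CPM (read counts scaled to library size). Of the B and plasma cell markers, Ms4a1 lay at 0.312 CPM or below in every library and Ighm between 426 and 676 CPM. The summed level of the 8 B and plasma cell markers was 602 to 684 CPM in WT hosts and 549 to 629 CPM in Il6-/- hosts on Day 3, and 434 to 469 CPM in WT hosts and 479 to 564 CPM in Il6-/- hosts on Day 5. In WT hosts the days did not overlap in this sum, and on Day 5 the genotypes did not overlap. Ighm made up most of the sum and every other marker in it lay at 7.38 CPM or below, so these differences describe mainly Ighm. The summed T helper cell markers were 10082 to 11327 CPM in WT and 9224 to 9483 CPM in the Il6-/- group on Day 3, and 16421 to 16556 and 14480 to 15515 CPM on Day 5. The 10 myeloid and dendritic cell markers summed to 11.1 to 96.2 CPM and the 5 lung epithelium markers to 0.494 to 20.2 CPM in the 12 libraries. Cd8a stayed at or below 1.70 CPM while Cd8b1 lay between 56.3 and 84.2 CPM. The summed level of the 6 CD8 T and NK cell markers on Day 3 was 62.4 to 74.4 CPM in the WT group and 83.6 to 114 CPM in the Il6-/- group, with no overlap. Among these markers the NK receptor gene Klrb1c had means of 4.82 and 20.9 CPM in the WT and Il6-/- groups of Day 3. Cd8b1 had means of 62.7 and 74.7 CPM. The part of these marker levels in the results was not tested.

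The members lie on several chromosomes of GRCm39, and their positions are those of GENCODE vM39. Slc7a5 (chr8:122607884-122634433) and Slc7a6 (chr8:106895139-106925346) share chromosome 8, and Slc38a1 (chr15:96469298-96541851) and Slc38a2 (chr15:96585266-96597894) are neighbours on chromosome 15. The other members are Slc3a2 (chr19:8684245-8701108), Slc43a1 (chr2:84669194-84698315), Slc7a1 (chr5:148264220-148336848), Slc1a5 (chr7:16515265-16532731) and Slc1a4 (chr11:20252180-20282774). Reads were counted without regard to strand, which matters for Slc3a2, because 743 of its exon bases (15.9%) overlap the antisense noncoding gene Snhg1. Stretches of 50 bases with an exact copy elsewhere in the genome made up 6.52% of Slc3a2 and 2.79% of Slc38a1, and at most 0.486% of each other member.

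Set against gene length, as CPM per kb of annotated exon, Slc1a5 was the highest member in every group, with 55.8 ± 1.57 (SD, n = 3) in WT hosts on Day 3. In the same group it was followed by Slc3a2 at 19.3 ± 0.838, Slc7a5 at 17.2 ± 2.89, Slc38a1 at 13.6 ± 0.688, Slc38a2 at 11.4 ± 0.481, Slc7a6 at 9.67 ± 0.594 and Slc7a1 at 8.24 ± 0.286 CPM per kb. The libraries of Slc3a2 and Slc7a5 overlapped in this order. Slc43a1 at 0.914 ± 0.0933 and Slc1a4 at 0.747 ± 0.247 CPM per kb were the lowest members and also overlapped. In Il6-/- recipients on Day 3, Slc7a5 stood above Slc3a2, at 32.8 ± 2.69 against 23.8 ± 2.09 CPM per kb. The exon length of Slc3a2 includes the 743 bases shared with Snhg1 and its stretches with an exact copy elsewhere (6.52%). Both can lower its value per kb, and whether the order of Slc7a5 and Slc3a2 holds without these bases was not tested. In Il6-/- recipients on Day 5 Slc7a5 had dropped behind Slc7a1, at 3.05 ± 0.604 against 5.95 ± 0.217 CPM per kb. The means had the same order in WT recipients on Day 5, at 4.43 ± 1.07 against 5.01 ± 0.505 CPM per kb, and there the libraries overlapped. The lengths cover all annotated exons of a gene, so carriers with long untranslated or rarely used exons, such as Slc38a1 with 18909 exon bases, are scaled down most.

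**Figure D1:**
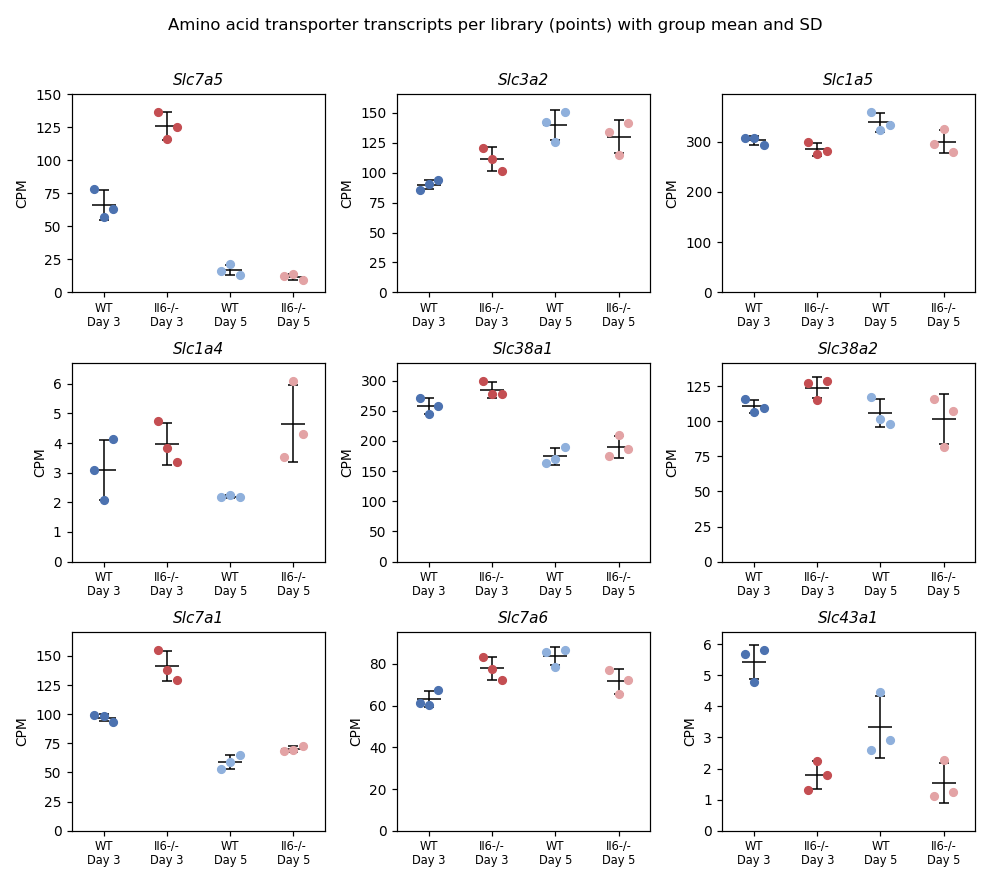
Level of each of the 9 transporter genes in CPM, 1 panel a gene with the axis starting at 0. Points are the 3 libraries of each group, and the bars give mean and SD; Slc7a5 is highest in Il6-/- hosts on Day 3 (116 to 136 CPM) and low in all 6 Day 5 libraries (9.11 to 21.4 CPM).

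Myc, ATF4 and STAT factors are known to act on promoters of amino acid carriers, so the RefSeq promoter windows of the members (GRCm38.p6, 250 bases before to 50 after the annotated start) were searched on both strands for the E-box CACGTG, the ATF4 composite element TGATGNAA and the STAT element TTCNNNGAA. Windows were given for 6 of the 9 members, 8 windows in all, and for Slc7a5, Slc1a5 and Slc38a1 none was used. Each of the 3 motifs was found in 1 of the 8 windows, each time another one, where 7.15%, 3.97% and 8.30% of all 32851 windows hold them. A match describes letters in a window, no binding was measured, and a link of the matches to the transcript levels was not tested. Those with a match and the window of the heavy chain are printed 5' to 3' on the strand of the gene, with the match in capitals. The Slc43a1 window (chr2:84840073-84840372, plus strand) holds the E-box at -64 from the start. In the Slc7a1 window at chr5:148392766-148393065 (minus strand), 1 of 2 windows of this gene, the STAT letters lie at -146. The Slc1a4 window (chr11:20332664-20332963, minus strand) holds the ATF4 element on the opposite strand at -4, across the start. The Slc3a2 window (chr19:8713848-8714147, minus strand) holds none of the motifs.
Slc43a1: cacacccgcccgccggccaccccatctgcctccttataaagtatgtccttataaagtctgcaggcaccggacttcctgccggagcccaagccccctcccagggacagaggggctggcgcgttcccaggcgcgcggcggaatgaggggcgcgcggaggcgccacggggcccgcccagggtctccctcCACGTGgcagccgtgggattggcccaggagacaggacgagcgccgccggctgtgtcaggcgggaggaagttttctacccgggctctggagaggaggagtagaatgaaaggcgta
Slc7a1: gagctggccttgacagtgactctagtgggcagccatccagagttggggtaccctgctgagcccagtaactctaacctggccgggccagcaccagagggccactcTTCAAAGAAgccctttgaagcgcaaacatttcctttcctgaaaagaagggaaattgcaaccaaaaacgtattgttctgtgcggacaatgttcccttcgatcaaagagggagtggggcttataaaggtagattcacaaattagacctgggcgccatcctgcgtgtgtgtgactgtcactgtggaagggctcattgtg
Slc1a4: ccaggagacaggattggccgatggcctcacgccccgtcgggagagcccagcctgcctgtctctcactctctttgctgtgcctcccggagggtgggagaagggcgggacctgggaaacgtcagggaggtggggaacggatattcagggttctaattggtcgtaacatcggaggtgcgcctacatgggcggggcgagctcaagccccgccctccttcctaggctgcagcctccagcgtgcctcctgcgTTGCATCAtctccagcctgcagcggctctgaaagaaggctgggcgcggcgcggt
Slc3a2: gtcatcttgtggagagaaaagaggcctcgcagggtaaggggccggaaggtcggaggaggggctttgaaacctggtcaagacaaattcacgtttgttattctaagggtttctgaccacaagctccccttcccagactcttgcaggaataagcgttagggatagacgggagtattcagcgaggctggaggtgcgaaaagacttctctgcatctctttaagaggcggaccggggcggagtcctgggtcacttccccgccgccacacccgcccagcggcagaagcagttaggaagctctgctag

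The first question was whether priming without host IL-6 changed the transporter transcripts on Day 3. By edgeR's quasi-likelihood test at an FDR under 0.05, 5 of the 9 members differed between Il6-/- and WT recipients, against 13.7% of all genes tested. Slc7a5, Slc7a1, Slc7a6 and Slc3a2 were higher in Il6-/- hosts and Slc43a1 was lower, where 7.52% of all genes were called higher and 6.19% lower. The median log2 fold change of the 9 members was 0.30, beside 0.01 over all genes. In 6 of the 9 the genotypes shared no range of values, beside 36.2% of all genes. Only Slc43a1 also met the study's limit of at least 2-fold, which 2.74% of all genes met. The calls of Slc3a2 and Slc7a6 were lost with some settings, and with upper-quartile scaling, no scaling or a gene-length offset 2 members were higher and 1 lower. As these are bulk libraries, a share of cells with a different level and a different level in every cell cannot be told apart.

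On Day 5, edgeR called 0 of the 9 members between the genotypes, beside 4.61% of all genes (1.27% higher and 3.35% lower). Of the 9, 6 had an unadjusted p under 0.05, DESeq2 called 3 and limma-voom called 0. The ranges of the genotypes were apart for 4 members, beside 19.6% of all genes, and the median log2 fold change was -0.10, beside 0.01 over all genes. Replicate numbers went together between the genotypes on this day, and with the replicate number as a block within each day 4 members were called, Slc1a4 and Slc7a1 higher and Slc7a5 and Slc43a1 lower in Il6-/- hosts. That fit called 1592 of all 13570 genes, against 626 without the block. Averaged over both days, 3 of the 9 were called, beside 14.8% of all genes (7.62% higher and 7.13% lower). These were Slc7a1 and Slc1a4, higher in Il6-/- hosts, and Slc43a1, lower. All 9 tests of Day 5 and of Day 3 are shown in the plot of genotype differences.

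**Figure D2:**
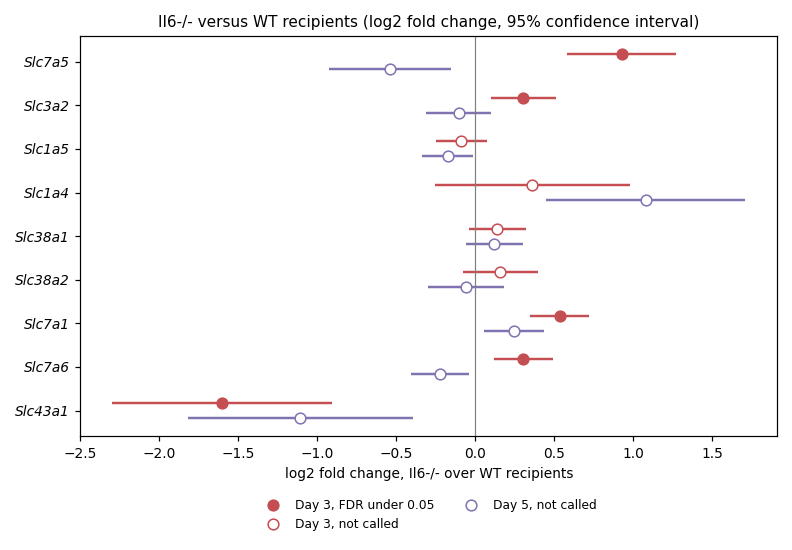
Log2 fold change of Il6-/- over WT recipients for each transporter gene on Day 3 (red) and Day 5 (purple), with lines for the 95% confidence interval. Filled points passed an FDR under 0.05 (5 on Day 3, 0 on Day 5); for Slc7a5, Slc7a6, Slc3a2 and Slc38a2 the points lie on opposite sides of 0 on the 2 days.

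Slc7a5 had the largest change with day among the members in each genotype, and its genotype difference on Day 3 was not that of Day 5. In WT recipients on Day 3 its libraries held 78.4, 56.9 and 62.9 CPM. In Il6-/- recipients on Day 3 they held 136, 116 and 125 CPM. On Day 5 they held 16.4, 21.4 and 13.2 CPM in WT hosts and 12.4, 13.6 and 9.11 CPM in Il6-/- hosts. All Day 3 libraries lay above all Day 5 libraries, the genotypes did not overlap on Day 3, and on Day 5 they did. The order of the group means was therefore Il6-/- Day 3, WT Day 3, WT Day 5 and Il6-/- Day 5, with overlap between the last pair.

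On Day 3, Slc7a5 was 1.90-fold higher in Il6-/- hosts (log2 fold change 0.93, SE 0.16, 95% confidence interval 0.58 to 1.27, FDR = 0.00156). The call held in all 12 fits that left out 1 library and in all 12 other settings. On Day 5 its log2 fold change was -0.54 (SE 0.18, 95% confidence interval -0.93 to -0.15, FDR = 0.105), which edgeR did not call. With the replicate block within each day the value was -0.53 (FDR = 0.00338), without WT Day 5 replicate 3 it was -0.69 (FDR = 0.0278), and without WT Day 5 replicate 2 it was -0.34 (FDR = 0.362). The difference between the genotype effects of the 2 days was itself called, at 1.47 (Day 3 minus Day 5, SE 0.24, FDR = 0.00553), where 4.92% of all genes were called, 3.12% in this direction and 1.8% in the other. Between Day 3 and Day 5, Slc7a5 fell by 1.96 on the log2 scale in WT hosts (SE 0.17, FDR = 2.42e-07) and by 3.43 in Il6-/- hosts (SE 0.18, FDR = 5.85e-09). By p-value the fall in Il6-/- hosts ranked 18 among the 13570 genes tested.

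Slc3a2, the heavy chain, did not follow its light chain over time. Its WT libraries on Day 3 held 85.9, 90.8 and 93.6 CPM, and those of Il6-/- recipients 121, 111 and 101 CPM. On Day 5 the libraries held 143, 126 and 151 CPM in WT hosts and 134, 115 and 141 CPM in Il6-/- hosts. The genotypes did not overlap on Day 3 and overlapped on Day 5. In WT recipients Slc3a2 rose from Day 3 to Day 5 by 0.63 on the log2 scale (SE 0.10, FDR = 5.33e-05), with no overlap between the days. In Il6-/- recipients the change was 0.23 (SE 0.10, FDR = 0.0547) and was not called. It was called in 5 of 11 other settings, among them upper-quartile scaling (0.46, FDR = 0.00150) and no scaling (0.38, FDR = 0.00366). It was also called in 3 of the 12 fits that left out 1 library, those without WT Day 5 replicate 2, Il6-/- Day 3 replicate 1 or Il6-/- Day 5 replicate 2 (0.22, 0.29 and 0.32, FDR = 0.0498, 0.0362 and 0.0118).

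The genotype difference of Slc3a2 on Day 3 was small, at 0.30 (SE 0.10, FDR = 0.0492), and passed in 5 of the 12 fits that left out 1 library. It was lost without any of the 3 WT Day 3 replicates (FDR 0.0866 to 0.138), without Il6-/- Day 3 replicate 1 or 2 (0.199 and 0.117), and without WT Day 5 replicate 1 or Il6-/- Day 5 replicate 2 (0.0559 and 0.0576). The Day 5 difference was -0.10 (SE 0.10, FDR = 0.620). The effects of the days differed by 0.41 (SE 0.14, FDR = 0.103). Snhg1, the noncoding gene that overlaps it on the other strand, was higher in Il6-/- hosts on Day 3 (0.46, SE 0.09, FDR = 0.00258), as Slc3a2 was. It fell with day in WT hosts (log2 fold change -0.46, FDR = 3.90e-04), opposite to Slc3a2, and in Il6-/- hosts (-0.99, FDR = 2.04e-07). The genotype effects of the days differed for Snhg1 by 0.53 (FDR = 0.0270), in the same direction as the uncalled difference of Slc3a2. Reads that could not be assigned to a single gene were left out of the counts as ambiguous, 1.96% to 2.28% of all reads in a library. How many of these came from the pair was not tested, and the per kb values of Slc3a2 include the overlapped bases.

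The ratio of light to heavy chain transcripts depends on no library scaling. Which chain stood higher per kb does depend on the exon lengths, and that of Slc3a2 includes the bases shared with Snhg1. Per kb of exon, the ratio of Slc7a5 to Slc3a2 was 1.11, 0.761 and 0.817 in the WT libraries of Day 3 and 1.37, 1.26 and 1.5 in those of Il6-/- recipients. The Day 5 libraries gave 0.140, 0.206 and 0.107 in WT hosts and 0.113, 0.144 and 0.0782 in Il6-/- hosts. The genotypes did not overlap on Day 3 and overlapped on Day 5. On the log2 scale the ratio was lower by 3.14 on Day 5 over both genotypes (log2 difference -3.14, exact two-sided permutation p = 0.005 over 400 labelings, the smallest they can give, adjusted p = 0.03 over 6 ratio tests). Over both days together the genotypes differed by 0.11 (exact permutation p = 0.695, adjusted p = 0.695). The mean ratio was higher in Il6-/- hosts on Day 3 and lower on Day 5, a comparison within a day that was not tested. In all 3 same-numbered pairs of Day 5 the Il6-/- library had the lower ratio, but the numbers are not stated to mark pairs.

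**Figure D3:**
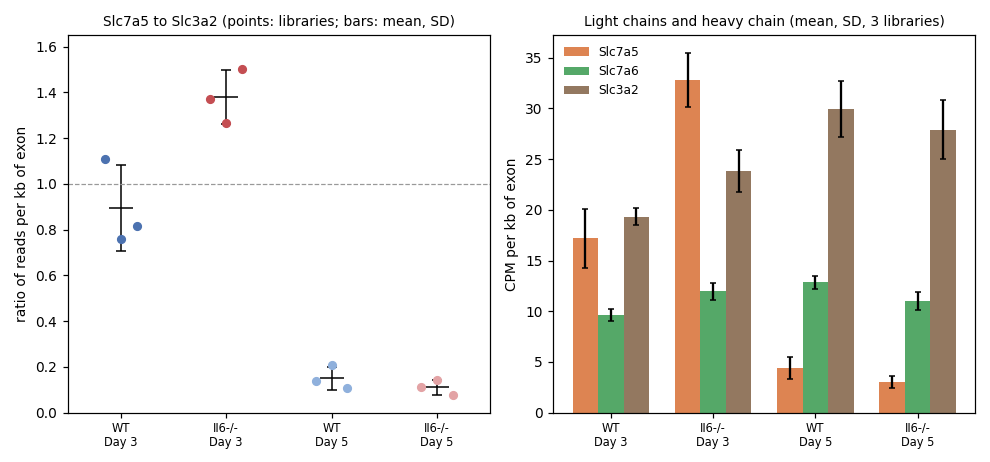
Left, ratio of Slc7a5 to Slc3a2 reads per kb of exon in each library, with mean and SD and a dashed line where both are equal. The exon length of Slc3a2 includes bases shared with Snhg1, which can lower its values per kb. Right, mean CPM per kb of exon with SD over 3 libraries for the light chains Slc7a5 and Slc7a6 and the heavy chain Slc3a2; Slc7a5 is above Slc3a2 in Il6-/- hosts on Day 3 (32.8 against 23.8) and far below it on Day 5 (4.43 against 29.9 in WT hosts).

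Slc7a6, the second light chain of CD98, differed between the days in the opposite way to Slc7a5 in WT hosts. Its WT libraries held 61.4, 60.2 and 67.4 CPM on Day 3 and 85.6, 78.8 and 86.6 CPM on Day 5. Those of Il6-/- recipients held 83.4, 77.6 and 72.5 CPM on Day 3 and 77.2, 65.5 and 72.5 CPM on Day 5. The WT libraries of Day 3 had the lowest mean and did not overlap with the other WT or Day 3 group. Slc7a6 rose by 0.41 from Day 3 to Day 5 in WT hosts (SE 0.09, FDR = 9.75e-04). Its change in Il6-/- hosts was -0.12 (SE 0.09, FDR = 0.255), and with upper-quartile or no scaling it was 0.11 or 0.03.

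On Day 3, Slc7a6 was higher in Il6-/- hosts by 0.31 on the log2 scale (SE 0.09, FDR = 0.0306), and on Day 5 the difference was -0.22 (SE 0.09, FDR = 0.163). The difference between these effects was called, at 0.53 (SE 0.12, FDR = 0.0270). The Day 3 call was lost without WT Day 3 replicate 1 or 2 (FDR = 0.0870 and 0.131) and without Il6-/- Day 3 replicate 1 or 2 (0.136 and 0.0824). The call of the difference was lost without WT Day 3 replicate 2 (FDR = 0.0839), WT Day 5 replicate 1 (0.0644), Il6-/- Day 3 replicate 1 or 2 (0.0754 and 0.0692) or Il6-/- Day 5 replicate 2 (0.0828). Slc7a5 and Slc7a6 were the only members whose genotype effect was called different between the days by edgeR.

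Slc43a1, the system L carrier without a heavy chain, was the one member that edgeR called lower in Il6-/- hosts on Day 3 and averaged over both days. On Day 3 its libraries held 5.70, 4.80 and 5.81 CPM in WT hosts and 1.32, 2.23 and 1.80 CPM in Il6-/- hosts. On Day 5 they held 2.60, 4.47 and 2.92 CPM in WT hosts and 1.11, 2.29 and 1.25 CPM in Il6-/- hosts. The genotypes did not overlap on either day. The Day 3 values rest on 97 to 146 reads per WT library and 25 to 42 reads per Il6-/- library. The log2 fold change was -1.60 on Day 3 (SE 0.33, FDR = 0.00446), called in all 12 fits without 1 library. On Day 5 it was -1.11 (SE 0.34, FDR = 0.0739), and without Il6-/- Day 5 replicate 2 it was -1.46 (FDR = 0.0492). With the replicate block within each day the Day 5 value was -1.13 (FDR = 0.0235), and DESeq2 called it as well (-1.08, FDR = 0.0234). Averaged over both days the gene was lower in Il6-/- hosts by 1.36 on the log2 scale (log2 fold change -1.36, SE 0.23, FDR = 0.00163). Its change from Day 3 to Day 5 was -0.71 in WT (FDR = 0.0650) and -0.21 in Il6-/- hosts (FDR = 0.614). Without WT Day 5 replicate 2 or Il6-/- Day 5 replicate 2 the WT change was called (-0.98 and -0.76, FDR = 0.0270 and 0.0313).

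Slc7a1, the arginine and lysine carrier, was higher in Il6-/- hosts and fell with day in both genotypes. On Day 3 its libraries held 99.7, 98.4 and 93.3 CPM in WT hosts and 155, 138 and 130 CPM in Il6-/- hosts. On Day 5 they held 53.0, 59.2 and 64.9 CPM in WT hosts and 68.4, 69.0 and 73.1 CPM in Il6-/- hosts. No pair of these 4 groups overlapped, and Il6-/- recipients were the higher on each day. On Day 3 the difference was 1.45-fold (log2 fold change 0.54, SE 0.09, FDR = 0.00102), and it was called in all 12 fits without 1 library and all 12 other settings. The Day 5 difference was 0.25 (SE 0.09, FDR = 0.127), or 0.25 with the replicate block within each day (FDR = 0.0410). Averaged over both days it was 0.39 (SE 0.06, FDR = 9.60e-04). From Day 3 to Day 5 Slc7a1 fell by 0.72 in WT (SE 0.09, FDR = 6.83e-06) and by 1.01 in Il6-/- hosts (SE 0.09, FDR = 1.90e-07). The difference between the genotype effects of the days was 0.29 (SE 0.13, FDR = 0.209) and was not called.

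Slc1a5 was the most abundant member per kb in each group. It held 308, 307 and 293 CPM in WT hosts and 298, 274 and 281 CPM in Il6-/- hosts on Day 3. In the Day 5 libraries it held 359, 323 and 332 CPM in WT hosts and 296, 324 and 279 CPM in Il6-/- hosts. The genotypes overlapped on both days, whereas all WT libraries of Day 5 lay above those of Day 3. The log2 fold change between the genotypes was -0.09 on Day 3 (95% confidence interval -0.25 to 0.07, FDR = 0.509) and -0.17 on Day 5 (-0.33 to -0.01, FDR = 0.207). From Day 3 to Day 5 it was 0.16 in WT (SE 0.07, FDR = 0.0797) and 0.07 in Il6-/- hosts (SE 0.08, FDR = 0.413). The WT change was called in 4 of 11 other settings, among them upper-quartile scaling (0.36, FDR = 5.86e-04), and that in Il6-/- hosts in 2, upper-quartile (0.30, FDR = 0.00210) and no scaling (0.22, FDR = 0.0190). Averaged over the days the genotype difference was -0.13 (FDR = 0.112), and it passed only without Il6-/- Day 5 replicate 2 (-0.17, FDR = 0.0461).

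Slc1a4, its close relative, was a rare transcript with 42 to 104 reads per library. It held 3.08, 2.08 and 4.13 CPM in WT hosts and 4.75, 3.82 and 3.37 CPM in Il6-/- hosts on Day 3. The Day 5 libraries held 2.19, 2.23 and 2.16 CPM in WT hosts and 3.55, 6.09 and 4.32 CPM in Il6-/- hosts. The genotypes overlapped on Day 3 and not on Day 5. Averaged over both days it was higher in Il6-/- hosts by 0.72 on the log2 scale (SE 0.21, FDR = 0.0303), a call that 7 of the 12 fits without 1 library did not make (FDR up to 0.0835). Those 7 left out WT Day 3 replicate 1 or 2, WT Day 5 replicate 1 or 2, Il6-/- Day 3 replicate 1 or 2 or Il6-/- Day 5 replicate 2. On Day 3 the difference was 0.36 (SE 0.29, FDR = 0.471). The Day 5 difference was 1.08 (SE 0.30, FDR = 0.0516), just over the threshold, and 8 of 12 other settings called it, among them the replicate block within each day (1.05, FDR = 0.0326). Without WT Day 3 replicate 2 or Il6-/- Day 5 replicate 1 it was also called (1.08 and 1.24, FDR = 0.0455 and 0.0267).

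As a count ratio within each library, Slc1a5 to Slc1a4 ranged from 70.9 to 148 in WT hosts and from 62.8 to 83.6 in Il6-/- hosts on Day 3. On Day 5 it ranged from 144 to 164 in WT hosts and from 53.2 to 83.3 in Il6-/- hosts. The genotypes overlapped on Day 3 and not on Day 5. The log2 ratio differed by -0.86 between Il6-/- and WT recipients over both days (exact two-sided permutation p = 0.015, adjusted p = 0.045). Leaving out 1 library gave -0.99 to -0.72, and without WT Day 3 replicate 1 or 2, WT Day 5 replicate 1 or 2, or Il6-/- Day 3 replicate 1 or 2 the exact adjusted p was 0.05 to 0.075. Between the days the log2 ratio differed by 0.23 (exact permutation p = 0.325, adjusted p = 0.488).

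Slc38a1 fell with day in both genotypes. It held 271, 245 and 257 CPM in WT hosts and 299, 277 and 277 CPM in Il6-/- hosts on Day 3. Its Day 5 libraries held 163, 171 and 190 CPM in WT hosts and 175, 209 and 186 CPM in Il6-/- hosts. All 6 Day 3 libraries lay above all 6 Day 5 libraries. The fall was 0.56 on the log2 scale in WT hosts (log2 fold change -0.56, SE 0.09, FDR = 4.64e-05) and 0.58 in Il6-/- hosts (log2 fold change -0.58, SE 0.09, FDR = 2.79e-05). Their difference was 0.02 with a 95% confidence interval of -0.24 to 0.27. The genotypes differed by 0.14 on Day 3 (SE 0.08, FDR = 0.317) and 0.12 on Day 5 (SE 0.09, FDR = 0.466), neither of them called, although the libraries of Day 3 did not overlap.

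Slc38a2 differed little among the groups. It held 116, 107 and 110 CPM in WT hosts and 128, 115 and 129 CPM in Il6-/- hosts on Day 3. Day 5 libraries held 117, 102 and 98.3 CPM in WT hosts and 116, 81.4 and 107 CPM in Il6-/- hosts. The groups of each comparison overlapped, and Il6-/- Day 5 replicate 2 was the lowest library. The genotype difference was 0.16 on Day 3 (FDR = 0.401) and -0.06 on Day 5 (FDR = 0.837). In Il6-/- recipients it was called lower on Day 5, by 0.28 on the log2 scale (log2 fold change -0.28, SE 0.11, FDR = 0.0395), and without that library the value was -0.14 (FDR = 0.206). The call was also lost without Il6-/- Day 3 replicate 1 or 3 (FDR = 0.0961 and 0.102) and in 6 of 11 other settings. The ratio of Slc38a1 to Slc38a2 counts was 2.33 ± 0.0244 (SD, n = 3) in WT hosts and 2.30 ± 0.132 in Il6-/- hosts on Day 3, and 1.67 ± 0.272 and 1.94 ± 0.560 on Day 5. The log2 ratio was lower on Day 5 by 0.39 (log2 difference -0.39, exact two-sided permutation p = 0.025, adjusted p = 0.05), which did not pass under 0.05. Without WT Day 5 replicate 3 or Il6-/- Day 5 replicate 2 it passed (-0.45 and -0.50, exact permutation adjusted p = 0.04 and 0.015).

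The second question was how the transporter transcripts changed as priming went on. From Day 3 to Day 5, 5 of the 9 members were called in WT hosts, beside 56.7% of all genes (29.5% higher and 27.1% lower). Slc7a5, Slc7a1 and Slc38a1 fell, and Slc3a2 and Slc7a6 rose. In Il6-/- recipients 4 were called, beside 60.5% of all genes (30.4% higher and 30.1% lower). These were Slc7a5, Slc7a1, Slc38a1 and Slc38a2, and all were lower. The days did not overlap for 7 members in WT hosts, beside 63.3% of all genes, and for 3 in Il6-/- hosts, beside 65.8%. The median log2 fold change of the members was -0.49 in WT hosts and -0.21 in Il6-/- hosts, beside 0.09 over all genes in each. With upper-quartile or no scaling the split was 3 higher and 3 lower in WT, and 2 higher (Slc3a2 and Slc1a5) and 3 lower in Il6-/- hosts. Upper-quartile scaling moved the median of all genes by 0.20 in WT hosts and 0.23 in Il6-/- hosts, and no scaling moved it by 0.15 in Il6-/- hosts. Slc7a5, Slc7a1 and Slc38a1 were lower on Day 5 in both genotypes under every scaling tried.

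**Figure D4:**
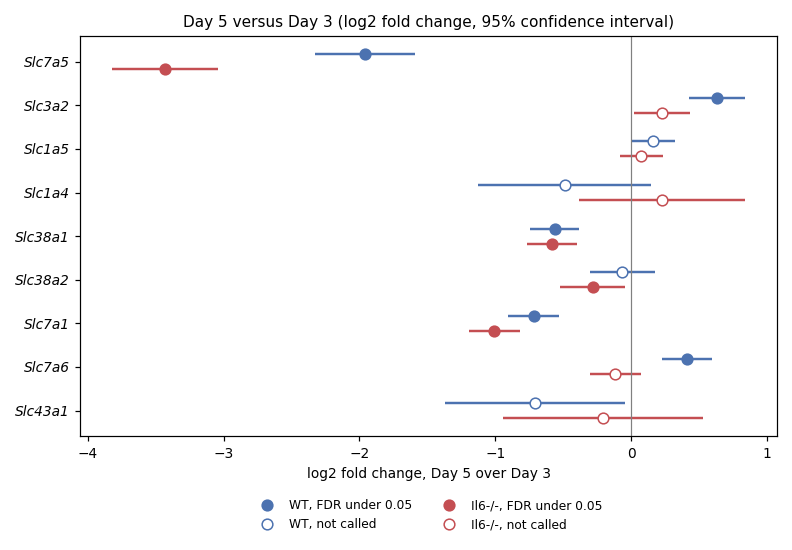
Log2 fold change from Day 3 to Day 5 for each transporter gene in WT (blue) and Il6-/- recipients (red), with 95% confidence intervals. Filled points passed an FDR under 0.05 (5 in WT, 4 in Il6-/-); Slc7a5 lies farthest from 0, at -1.96 and -3.43, and Slc3a2 and Slc7a6 lie above 0 in WT hosts.

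The summed level of the 9 members was 996 ± 29.8 CPM (SD, n = 3) in WT hosts and 1155 ± 62.7 CPM in Il6-/- hosts on Day 3, and 923 ± 31.2 and 881 ± 6.45 CPM on Day 5. Across the 12 libraries, log2 CPM of Slc7a5 had a Pearson correlation of 0.919 with Slc38a1 and 0.905 with Slc7a1, and of -0.701 with Slc3a2. Slc3a2 had its highest correlation among the members with Slc7a6 (0.817). The 12 libraries form 4 groups and share day and genotype, so these values describe the group pattern. Among 8322 genes of at least 10 CPM on average, those with the pattern most like Slc7a5 over the 12 libraries were Nsun2 (Pearson r = 0.991), an RNA cytosine methyltransferase, Hspa4 (0.991), a chaperone of the HSP110 family, and Lrrc59 (0.990). Those most like Slc3a2 were Bahd1 (0.961), N4bp2l2 (0.956) and Slc52a2 (0.956), a riboflavin carrier.

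Other genes that move, sense or use amino acids were described by lists. Of 40 other amino acid transporter genes in the files, 15 were tested. On Day 3, 1 was higher in Il6-/- hosts and 1 lower, together 13.3% beside 13.7% of all genes. Slc16a10, the aromatic amino acid carrier TAT1, rose from 16.9 ± 2.40 CPM in WT hosts to 27.1 ± 4.04 CPM in Il6-/- hosts (log2 fold change 0.69, SE 0.17, FDR = 0.0149). By Day 5 it stood at 6.02 ± 0.925 and 4.39 ± 0.921 CPM, and the difference between the genotype effects of the days was 1.15 (SE 0.26, FDR = 0.0230). It was thus highest in Il6-/- hosts on Day 3 and low in both genotypes on Day 5, as Slc7a5 was. Slc43a2, which encodes LAT4 and is the closest relative of Slc43a1, was lower in Il6-/- hosts on Day 3 by 0.45 on the log2 scale (log2 fold change -0.45, SE 0.12, FDR = 0.0176), from 80.6 ± 5.98 to 59.0 ± 4.97 CPM. On Day 5 edgeR called 0 of the 15 between the genotypes, 1 had an unadjusted p under 0.05, and DESeq2, which gave no adjusted p for 5 of them, and limma-voom called 0. Between the days 6 rose and 4 fell in WT hosts (66.7% called, beside 56.7% of all genes), and 6 rose and 3 fell in Il6-/- hosts (60.0%, beside 60.5%).

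The cytosolic aminoacyl-tRNA synthetases, which load amino acids on their tRNAs, were higher in Il6-/- hosts on Day 3 in 10 of 20 members tested and lower in none, beside 7.52% higher and 6.19% lower of all genes. Their median log2 fold change was 0.33, beside 0.01 over all genes. Iars (isoleucine) stood at 155 ± 17.6 CPM in WT hosts and 253 ± 21.6 CPM in Il6-/- hosts (log2 fold change 0.71, SE 0.11, FDR = 9.37e-04), and Nars (asparagine) at 254 ± 15 and 353 ± 18.6 CPM (0.47, SE 0.09, FDR = 0.00219). On Day 5 edgeR called 0 of the 20, 10 had an unadjusted p under 0.05, DESeq2 called 3 and limma-voom 0. From Day 3 to Day 5 all 20 fell in each genotype, beside 27.1% of all genes in WT hosts and 30.1% in Il6-/- hosts, with a median of -1.01 in WT hosts and -1.10 in Il6-/- hosts.

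Of 17 enzymes that use glutamine, aspartate or branched-chain amino acids, 4 were higher in Il6-/- hosts on Day 3 and none was lower, beside 7.52% and 6.19% of all genes. Cad, which starts pyrimidine synthesis from glutamine, stood at 158 ± 15.6 CPM in WT hosts and 252 ± 21.3 CPM in Il6-/- hosts (0.67, SE 0.17, FDR = 0.0180). From Day 3 to Day 5, 11 fell and 3 rose in WT hosts, beside 27.1% and 29.5% of all genes, and 10 fell and 3 rose in Il6-/- hosts, beside 30.1% and 30.4%.

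Of 33 genes of amino acid sensing upstream of mTORC1, 2 were higher and 3 lower in Il6-/- hosts on Day 3, 15.2% beside 13.7% of all genes, with a median of -0.02. Castor1, the arginine sensor, was lower (log2 fold change -0.71, SE 0.15, FDR = 0.00490), and Sesn3, of the sestrin family, was lower as well (-0.41, SE 0.10, FDR = 0.0143). Wdr59, a GATOR2 subunit, was higher (0.50, SE 0.11, FDR = 0.00665). On Day 5, 1 was higher and 2 lower, 9.09% beside 4.61% of all genes.

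Of 12 genes of the amino acid response driven by the kinase GCN2 and the factor ATF4, none was higher and 2 were lower in Il6-/- hosts on Day 3, 16.7% called beside 13.7% of all genes. These were Ddit4 (-0.49, SE 0.12, FDR = 0.0145) and Trib3 (-1.21, SE 0.30, FDR = 0.0159). Trib3 was rare, with 545 reads over all libraries and means of 3.77 CPM in WT and 1.63 CPM in Il6-/- hosts on Day 3. On Day 5 edgeR called 0 of the 12, 4 had an unadjusted p under 0.05, and DESeq2, which gave no adjusted p for 2 of them, and limma-voom called 0. From Day 3 to Day 5, 2 of the 12 rose and 3 fell in WT hosts (41.7% called, beside 56.7% of all genes). In Il6-/- hosts 3 rose and 4 fell (58.3%, beside 60.5%). Among those that fell was Asns, the asparagine synthetase, by 1.99 in WT hosts and by 2.22 in Il6-/- hosts on the log2 scale (FDR = 2.54e-04 and 7.32e-05). Asns was rare as well, with 583 reads over all libraries and Day 5 means of 0.834 CPM in WT and 0.979 CPM in Il6-/- hosts. Myc stood at 57.6 ± 3.74 CPM in WT hosts and 74.7 ± 8.95 CPM in Il6-/- hosts on Day 3, and at 49.7 ± 8.20 and 48.1 ± 7.35 CPM on Day 5. It fell with day in Il6-/- hosts (log2 fold change -0.64, SE 0.13, FDR = 8.12e-04). The change of Myc in WT hosts was -0.21 (FDR = 0.189) and was not called, nor was the difference between the 2 changes. Of the 2 tested genes of the Myc list, Myc and Max, edgeR, DESeq2 and limma-voom called 0 between the genotypes on either day, and 1 on Day 3 and 0 on Day 5 had an unadjusted p under 0.05.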

How the data were processed

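RNA-seq was measured in 12 libraries of sorted OTII cells, 3 for each recipient genotype and day. Reads were single-end and 50 bases long, although the trimming options are given for paired reads. Per the labels and the study's methods, the authors used Trim Galore 0.4.4 for trimming, STAR 2.5.2a for alignment (GRCm39) and HTSeq 0.6.1p1, in its unstranded mode, for counting. The authors deposited 1 file of raw counts by gene symbol for each library. A series table of log2 CPM was not used. Between 16125947 and 26111657 reads were counted per library.

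The counts were tested with edgeR 4.0.16 (R 4.3.3). After filterByExpr, which kept 13570 genes, and TMM scaling, a quasi-likelihood model with 1 coefficient for each of 4 groups was fitted to all 12 libraries. CPM use TMM-scaled library sizes, and log2 CPM a prior count of 2. The FDR is Benjamini-Hochberg adjusted over all genes, a call is an FDR under 0.05, and the study's limit of 2-fold is given beside it. Count ratios were tested by exact two-sided permutation within strata (400 labelings), adjusted over 6 tests. Exon lengths and positions are from GENCODE vM39 (32251 symbols matched, 79.0%), and promoter windows from RefSeq. The fit was tested on simulated counts.

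All 9 members are named, with up to 2 called genes of smallest p in each direction from each list. Results of 2 genes of the lists are not reported here. The members, lists and tests were chosen with earlier results of these data known. DESeq2 1.42.0 and limma 3.58.1, other scalings, filters, offsets, blocks and leaving out each library were the alternatives.

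Replicate numbers are not stated to mark litters or days. Deviations of same-numbered libraries from their group means correlated by 0.129 to 0.243 between the genotypes on Day 5, over 0.1 in every pair, and by 0.0325 to 0.0599 on Day 3. Between the days they correlated by -0.0710 to 0.0707. Libraries of different number correlated by -0.182 to -0.0316 between the genotypes on Day 5 and by -0.0683 to 0.0306 on Day 3. The deviations within a group cancel out, so these values follow in part from those of same-numbered libraries and are no separate evidence. The main model used no replicate numbers. A fit with them as a block within each day, for Day 3 as well as Day 5, is given beside the Day 5 results.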

Additional observations from a re-analysis of the deposited data

Results flagged for a closer look

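The genotype effect differed between Day 3 and Day 5, by the interaction term of the edgeR model, for 2 of the transporter genes and for Slc16a10 and Ddit4 of the pathway lists. The values are log2 fold changes of Il6-/- over WT recipients on Day 3 minus those on Day 5. For Slc7a5 the difference was 1.47 (FDR = 0.00553) and for Slc7a6 0.53 (FDR = 0.0270). Slc16a10, the aromatic amino acid carrier, gave 1.15 (FDR = 0.0230). Ddit4, an inhibitor of mTORC1 signaling, differed in the other direction, at -0.82 (FDR = 0.0150). These values include results already described above. Groups of 3 libraries were not searched for outlying samples.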

How the results depend on the processing

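With 3 libraries a group, small differences cannot be told from the spread. Slc1a4 and Slc43a1 rest on 21 to 146 reads per library, so among the members counting error is largest there. The design allowed no separation of cell composition from level. Of 1260 values of the 9 members under the alternatives, 1157 kept their direction and their side of the threshold, 41 lost and 42 gained a call, and 20 changed sign; the causes of these changes were not tested.

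The members called on Day 3 numbered 3 with upper-quartile scaling, no scaling and the gene-length offset, against 5, and 3 to 5 without 1 library. On Day 5, against 0, they numbered 1 with RLE, upper-quartile and no scaling and with the GC-content and gene-length offsets, 3 with DESeq2 and with no filter, 4 with the replicate block within each day, and 0 to 1 without 1 library. The interaction calls numbered 1 without scaling, against 2, and 1 to 2 without 1 library. The replicate block within each day also called the interaction of Slc3a2 (0.41, FDR = 0.0249) and the average of Slc7a5 (0.20, FDR = 0.0375). One replicate block over both days changed no member count by over 1.5 times (5 called on Day 3, 0 on Day 5, and 6 and 4 between the days).

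Signs changed in uncalled values only. Between the days these were Slc38a2 in WT recipients with upper-quartile scaling (0.13) and, in Il6-/- recipients, Slc7a6 with upper-quartile (0.11) and no scaling (0.032), Slc43a1 with upper-quartile scaling (0.011) and Slc1a5 with the GC-content offset (-0.021). The interaction of Slc38a1 was -0.0040 with RLE scaling, -0.011 with upper-quartile scaling, -0.081 without scaling, -0.0039 with DESeq2 and -0.018 with the GC-content offset, and that of Slc1a5 was -0.013 without scaling. Without 1 library, the range was -0.047 to 0.065 for the interaction of Slc38a1, -0.16 to 0.10 for Slc38a2 and -0.17 to 0.0031 for Slc3a2 between the genotypes on Day 5, -0.0011 to 0.12 for the genotype average of Slc38a2, and -0.00030 to 0.38 for Slc1a4 between the days in Il6-/- recipients. The genotype difference of the log2 ratio of Slc7a5 to Slc3a2 was -0.0070 to 0.23, that of Slc38a1 to Slc38a2 -0.025 to 0.17 and that of Slc1a5 to Slc1a4 -0.99 to -0.72, and the day difference of Slc38a1 to Slc38a2 was -0.50 to -0.31.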
